A study of Solanum lycopersicum with 36 samples.

Results

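Leaves of grafted tomato seedlings were compared with leaves of self-rooted seedlings after 48 h in 175 mM NaCl. The comparison used 6 of the 36 RNA-seq libraries of the series, assigned by their labels: replicates 10, 11 and 12 of the grafted seedlings (GSs) and replicates 10, 11 and 12 of the self-rooted seedlings (NGSs). In the GSs a scion of Zhongza 9, a variety described as salt-sensitive, grew on QZ-006, a rootstock described as salt-tolerant, after split grafting, and the NGSs grew on their own roots. All seedlings stood in Hoagland solution, and salt was in the solution of both groups. The GSs differ from the NGSs by the graft union as well as by the root genotype, so the effects of grafting and of QZ-006 cannot be told apart. Libraries taken at 0 h, 3 of GSs and 3 of NGSs, gave the levels before salt. No library of seedlings kept without salt for 48 h was among the samples, so time in culture and salt cannot be told apart within either group.

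Salt in the root medium first lowers the water available to the plant and later loads the leaves with sodium. Leaves answer with abscisic acid, jasmonate and ethylene signalling, with osmolytes and protective proteins, with ion pumps and exclusion, and with changes in the cell wall that set how far cells can extend. A tolerant rootstock is used in grafted vegetables because the roots decide much of the sodium and water that reach the shoot, while the leaves keep the genotype of the scion.

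The reads assigned to genes numbered 26661418, 23363943 and 19497776 in the GS libraries and 21964582, 22947032 and 23274135 in the NGS libraries at 48 h. All values are FPKM, a unit inferred from the values, which scale the fragments of a gene by its length and by the size of the library. Log2 differences are GS minus NGS of log2(FPKM + 1), which understates the change of genes with low FPKM. Leaf identity was plain in every library, since RBCS4, a small subunit gene of Rubisco, stood at 14097, 9499 and 10058 FPKM in GSs and at 14639, 6942 and 9364 FPKM in NGSs. The summed trichome markers held 34.1, 35.7 and 37.6 FPKM in GSs against 34.3, 20.1 and 29.5 FPKM in NGSs, and the summed phloem markers held 172.4, 156.8 and 183.9 FPKM in GSs against 230.4, 280.4 and 210.1 FPKM in NGSs. Most of the phloem sum was LeSUT1, which is described again below. Of the 3 phloem markers tested, 1 had a positive difference and 2 a negative one, and of the 6 trichome markers 4 and 2. By limma, 0 markers of either list had an unadjusted p under 0.05, so no shift of a cell type is read from the sums. In bulk leaves, fewer cells of a type and less RNA per cell cannot be told apart. The GS libraries were closer to each other than the NGS libraries were, with squared correlations of 0.971 to 0.975 in GSs against 0.966 (replicates 10 and 11), 0.957 (10 and 12) and 0.948 (11 and 12) in NGSs. NGS replicate 11 was the NGS library furthest from the GSs, at 0.928 to 0.941, while NGS replicates 10 and 12 were at 0.958 to 0.967. GS replicate 12 held more transcripts of the plastid and mitochondrial genomes than the other libraries of 48 h, as described with those genes. The study calls its replicates biological but the sources used here do not say whether each was a plant or a pool, so the p-values measure only a spread between libraries. That spread, and with it each SE, was estimated over all 12 groups of the 36 libraries, so libraries outside the comparison enter it.

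Few genes were called between GSs and NGSs at 48 h. Of 20090 genes tested with limma, 10 were higher in GSs, which is 0.0498% of those tested, and 0 were lower (0.0%), at a log2 difference of at least 1 and a Benjamini-Hochberg adjusted p under 0.05. At an unadjusted p under 0.05, 1240 genes were higher in GSs (6.17%) and 1057 were lower (5.26%). With the adjusted p alone, 12 genes passed, all of them higher in GSs. Before salt the same 20090 genes had given 303 higher (1.51%) and 715 lower (3.56%) calls between GSs and NGSs. The median log2 difference of all tested genes at 48 h was -0.01, and 9705 genes had a positive difference (48.3%). The count rests on single libraries, because it was 1 without GS replicate 10, without GS replicate 11 or without NGS replicate 11, and 118 (80 higher and 38 lower) without NGS replicate 12. Under limma's voom on the recovered reads no gene was called, with 2039 genes at an unadjusted p under 0.05. With limma's spread taken only from the libraries compared, 0 genes were called, with 2601 at an unadjusted p under 0.05.

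**Figure D1:**
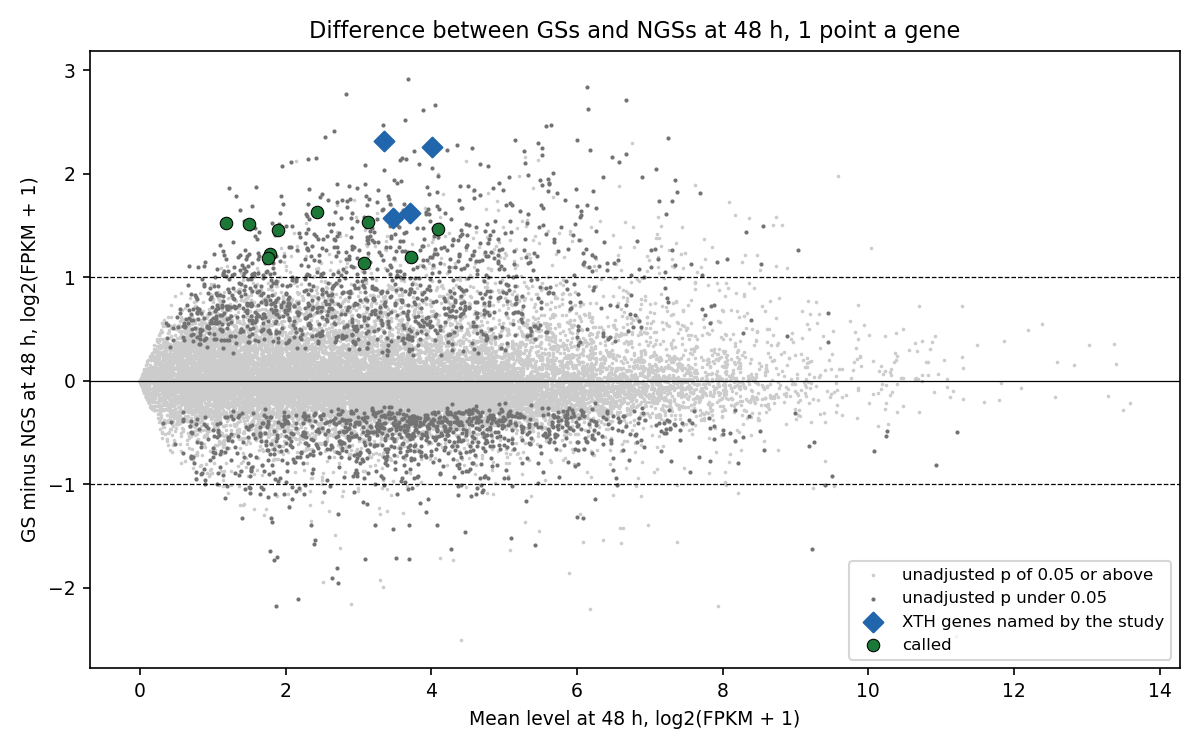
Log2 difference (GS minus NGS at 48 h, vertical axis) against log2 of 1 plus the mean FPKM of the 6 libraries (horizontal axis), 1 point per tested gene. Called genes are circled in green and the XTH genes of the study are blue diamonds. The 10 called genes lie above 1 on the vertical axis with mean levels of 2.37 to 23.7 FPKM in GSs, and the 4 XTH genes, from 1.58 to 2.31, were not called.

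The most abundant of the called genes was LOC101251284, with 29.1, 22.1 and 19.8 FPKM in GSs and 7.15, 4.96 and 13.1 FPKM in NGSs. Its log2 difference was 1.47 ± 0.26 (SE, n = 3 each, limma adjusted p = 0.025), and the groups did not overlap. At 0 h it stood at 2.76 ± 0.43 FPKM in GSs and 3.77 ± 1.35 FPKM in NGSs (SD, n = 3 each), so its level at 48 h was above that at 0 h in both groups. LOC101264718 had 16.1, 16.1 and 19.9 FPKM in GSs against 6.88, 7.50 and 6.65 FPKM in NGSs, a log2 difference of 1.19 ± 0.23 (adjusted p = 0.042). All 3 GS libraries lay above all 3 NGS libraries with narrow spreads on both sides. The 0 h levels of this gene were 15.0 ± 1.51 FPKM in GSs and 18.9 ± 1.47 FPKM in NGSs, so that GSs held about their 0 h level at 48 h while NGSs stood below theirs.

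LOC101257252 stood at 13.1, 13.3 and 9.27 FPKM in GSs and 3.83, 1.72 and 5.51 FPKM in NGSs (log2 difference 1.53 ± 0.30, adjusted p = 0.042). LOC101246038 stood at 9.73, 9.45 and 12.8 FPKM in GSs and 4.48, 3.83 and 4.50 FPKM in NGSs (1.14 ± 0.21, adjusted p = 0.031). LOC104646830 stood at 6.51, 4.99 and 9.99 FPKM in GSs and 1.66, 1.20 and 1.86 FPKM in NGSs (1.63 ± 0.32, adjusted p = 0.046). In each of these genes the lowest GS library was above the highest NGS library. None of the 10 called genes carries a name beyond its locus in the sources used here, so their functions are not given.

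The other 5 called genes had lower mean levels in GSs, and in some of them NGS values rested on few reads. LOC101247587 had the lowest adjusted p of all genes (0.0018) with 1.71, 2.42 and 3.00 FPKM in GSs against 0.407, 0.0901 and 0 FPKM in NGSs. Its 6 values came from 0 to 27 reads each, and its log2 difference was 1.53 ± 0.21. It alone stayed called without any single library of 48 h, with adjusted p between 0.0022 and 0.030 over those 6 fits and under 5 of the 9 other settings tried. LOC101249859 stood at 3.77, 3.47 and 2.24 FPKM in GSs and 0.420, 0.0465 and 0.984 FPKM in NGSs, from 1 to 90 reads (1.52 ± 0.27, adjusted p = 0.025). This gene was listed at 0 in all 3 GS libraries at 0 h.

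LOC101244226 stood at 4.42, 4.88 and 3.98 FPKM in GSs and 0.713, 0.701 and 1.62 FPKM in NGSs (1.46 ± 0.28, adjusted p = 0.042). At 0 h it was at 0.0439 ± 0.0385 FPKM in GSs and 1.04 ± 0.43 FPKM in NGSs, so the order of the groups was the opposite before salt. LOC101246866, with 3.22, 3.77 and 4.30 FPKM in GSs and 1.95, 0.841 and 0.526 FPKM in NGSs, differed by 1.23 ± 0.22 (adjusted p = 0.025). LOC101247729, with 3.56, 4.14 and 3.44 FPKM in GSs and 0.823, 0.901 and 1.53 FPKM in NGSs, differed by 1.19 ± 0.23 (adjusted p = 0.043). Both were under 0.2 FPKM on average in either group at 0 h. Over the 10 genes the log2 differences ran from 1.14 to 1.63, and 9 of them were lost without at least 1 of the 6 libraries. At 0 h, 0 of the 10 had been called between the groups, beside 1.51% of all tested genes called higher and 3.56% lower. With so low a share, nothing is read from the lack of calls at 0 h.

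**Figure D2:**
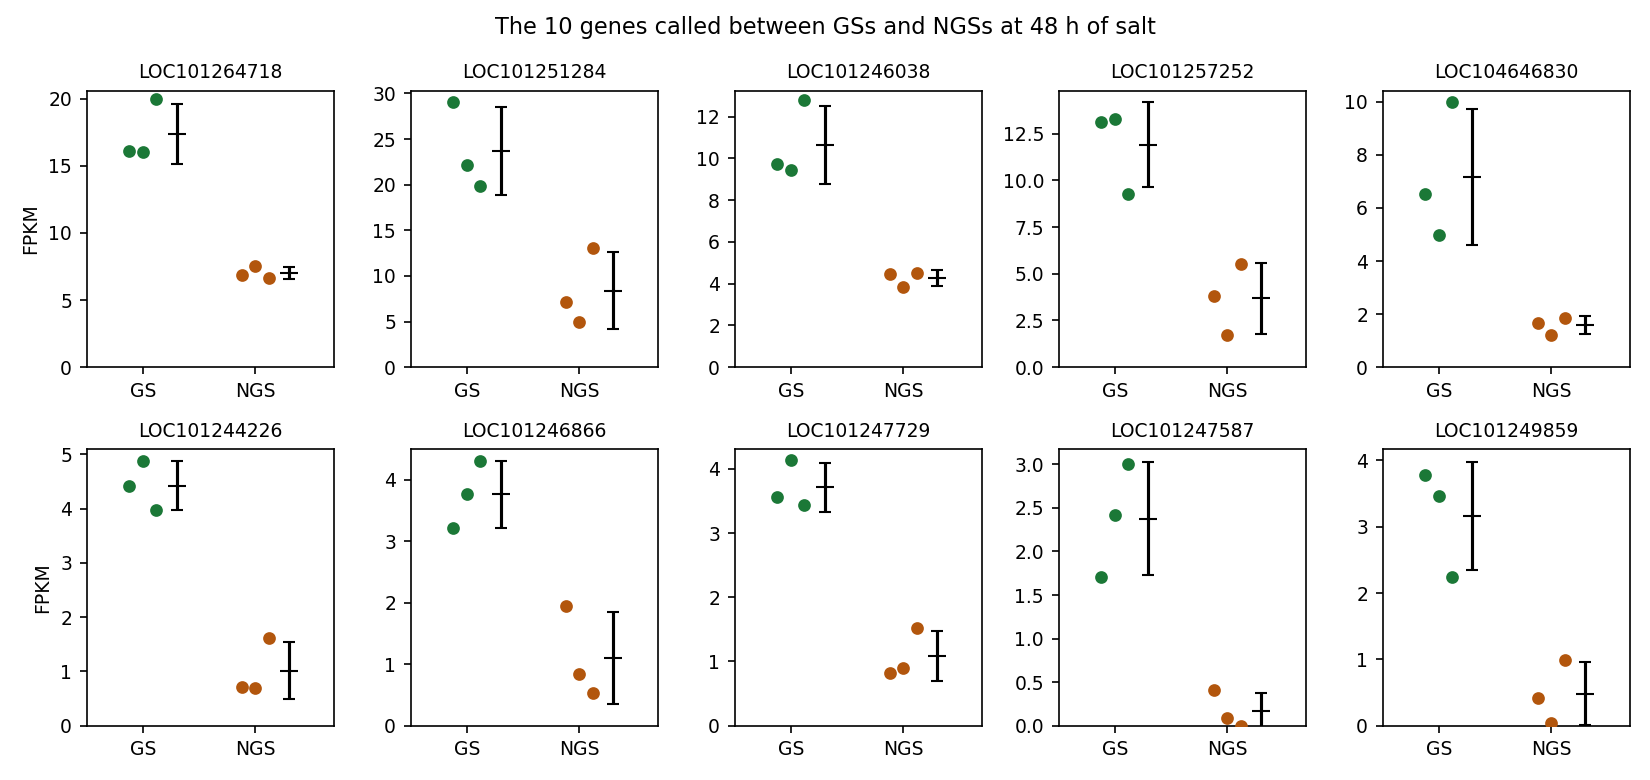
FPKM of the 10 called genes, 1 panel a gene with its own axis from 0, in the GS libraries (left) and NGS libraries (right) at 48 h, with 1 point per library and the group mean ± SD (n = 3 each) beside them. In each gene the 3 GS points sit above the 3 NGS points.

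A pair of further genes passed on the adjusted p but not on the size of the difference. LOC104649555 stood at 1.41, 1.30 and 1.46 FPKM in GSs and 0.0953, 0.296 and 0.243 FPKM in NGSs (0.98 ± 0.17, adjusted p = 0.025). LOC109121218 stood at 1.90, 3.08 and 2.20 FPKM in GSs and 0.689, 0.657 and 0.902 FPKM in NGSs (0.94 ± 0.18, adjusted p = 0.042). In both genes every GS library lay above every NGS library.

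No gene passed as lower in GSs, and the values of the 10 lower genes with the lowest unadjusted p are given as levels. MCA2, whose namesake in Arabidopsis takes part in calcium uptake across the plasma membrane, came closest with an adjusted p of 0.072. It stood at 3.30, 2.85 and 2.08 FPKM in GSs and 11.1, 9.15 and 5.07 FPKM in NGSs, without overlap (-1.29 ± 0.29). At 0 h the order was the opposite, at 8.94, 9.83 and 5.71 FPKM in GSs and 3.92, 1.66 and 3.62 FPKM in NGSs. The same turn of order was seen in LOC101260459, the most abundant of the 10, which stood at 349, 223 and 293 FPKM in GSs and at 951, 1177 and 604 FPKM in NGSs at 48 h (-1.63, adjusted p = 0.14). Its levels at 0 h were 366 ± 77.2 FPKM in GSs and 82.4 ± 40.6 FPKM in NGSs (SD, n = 3 each), so the GS level was alike at both times and the NGS level was not.

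LOC101263994 stood at 13.1, 15.2 and 16.1 FPKM in GSs and 40.5, 47.4 and 17.1 FPKM in NGSs (-1.07, adjusted p = 0.20). LOC101268463 stood at 0, 0.701 and 0.290 FPKM in GSs and 3.81, 6.46 and 4.63 FPKM in NGSs (-2.18 ± 0.66, adjusted p = 0.21). LOC100037509 stood at 30.8, 47.9 and 25.4 FPKM in GSs and 52.1, 85.9 and 135 FPKM in NGSs (-1.31, adjusted p = 0.15). In 9 of the 10 lower genes all GS libraries lay below all NGS libraries, the exception being a gene model that no source used here names. Others of the 10 were LOC104648440 (-1.71), LOC101245530 (-1.01), LOC101246105 (-1.13) and LOC101260252 (-1.03). The ordering of all 3 GS libraries above all 3 NGS libraries held in 2221 of the tested genes (11.1%) and the reverse ordering in 1718 (8.55%).

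The study names 20 genes by identifier, chosen on these libraries, so their direction here is not independent evidence. All 20 were tested and 0 were called at 48 h, beside 0.0498% of all tested genes called higher. With so low a share, nothing is read from the lack of calls. Of the 20, 18 had a positive log2 difference, 7 had an unadjusted p under 0.05, and in 10 the groups did not overlap, all with GSs above. Their median log2 difference was 1.05, beside -0.01 for all tested genes.

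The xyloglucan endotransglucosylase/hydrolases (XTHs) cut and rejoin xyloglucan, the polymer that ties cellulose microfibrils together in the growing wall. The study lists 4 XTH genes in the brassinosteroid pathway, and in all 4 every GS library was above every NGS library at 48 h. LOC101258345 stood at 12.9, 8.95 and 26.5 FPKM in GSs and 3.19, 0.942 and 2.81 FPKM in NGSs (2.31 ± 0.65, adjusted p = 0.19). LOC101258632 stood at 21.7, 20.6 and 34.3 FPKM in GSs and 5.58, 2.27 and 6.41 FPKM in NGSs (2.26 ± 0.74, adjusted p = 0.24). GS replicate 12 was the highest and NGS replicate 11 the lowest library in both of them.

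XTH3 stood at 14.2, 10.95 and 32.3 FPKM in GSs and 5.76, 3.095 and 6.48 FPKM in NGSs (1.62 ± 0.89, adjusted p = 0.49). LOC101258926 stood at 13.8, 10.5 and 22.6 FPKM in GSs and 4.67, 2.86 and 5.90 FPKM in NGSs (1.58 ± 0.69, adjusted p = 0.38). In all 4 genes the order was the opposite before salt, again without overlap. LOC101258345 was at 0.822, 0.160 and 0.0514 FPKM in GSs at 0 h, against 2.97, 1.73 and 2.38 FPKM in NGSs, and LOC101258632 was at 1.77, 0.270 and 0.297 FPKM in GSs, against 3.44, 5.12 and 6.22 FPKM in NGSs. The authors' sources used here do not say how reads shared by near-identical copies were counted, so the division of reads among these XTH genes is uncertain.

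**Figure D3:**
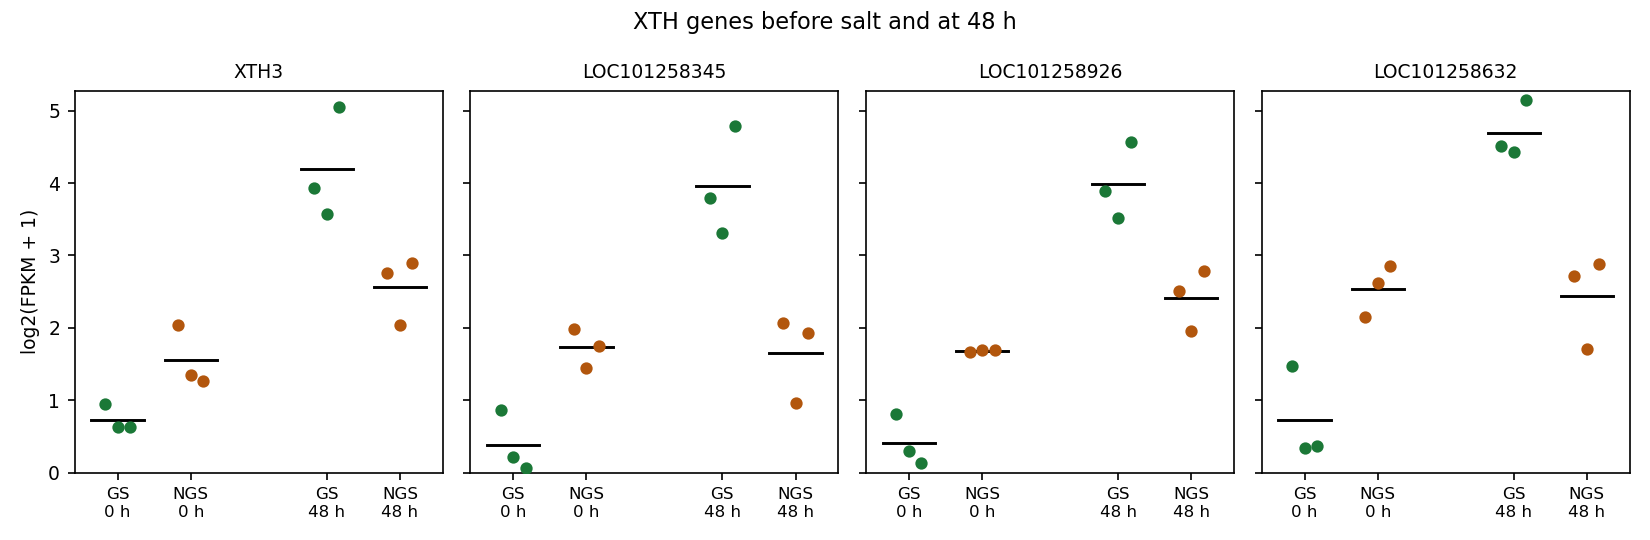
Log2(FPKM + 1) of the 4 XTH genes named by the study in single libraries at 0 h and 48 h, GSs left of NGSs at each time, with 1 point per library and a line at the group mean. Every GS library lies below every NGS library at 0 h and above it at 48 h.

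The list of genes with an XTH or XET name, XTH3 among them, was less uniform, and 0 of its 10 tested members were called at 48 h. Of the 10, 6 had a positive difference, 2 an unadjusted p under 0.05, and the median was 0.70. XTH7 stood at 49.6, 55.6 and 34.4 FPKM in GSs and 15.3, 6.30 and 14.9 FPKM in NGSs (1.92 ± 0.64, adjusted p = 0.25). At 0 h the same gene was at 131, 37.2 and 67.3 FPKM in GSs and 98.5, 247 and 217 FPKM in NGSs, so both groups were lower at 48 h, the NGSs by more. XTH1 stood at 10.7, 13.8 and 12.0 FPKM in GSs and 7.09, 4.49 and 8.05 FPKM in NGSs (0.83), after 16.9 ± 7.74 FPKM in GSs and 52.9 ± 9.54 FPKM in NGSs at 0 h. XTH9 averaged 3.57 FPKM in GSs and 1.03 FPKM in NGSs at 48 h, after 1.705 ± 1.16 FPKM in GSs and 15.3 ± 7.80 FPKM in NGSs at 0 h. XTH5 (-0.35) and XTH6 (-0.70) had negative differences at 48 h.

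Other wall-related values were chosen after they had been seen. EXP5, an expansin that loosens the wall without cutting it, stood at 81.4, 47.7 and 32.6 FPKM in GSs and 28.2, 12.8 and 22.9 FPKM in NGSs (1.27 ± 0.42, adjusted p = 0.25). Its 0 h levels were 21.5 ± 4.12 FPKM in GSs and 125 ± 55.3 FPKM in NGSs. As in the 4 XTH genes of the study, the groups did not overlap at either time and their order was reversed between the times.

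Of the transcription factors named by the study, none passed. WRKY31, a member of the WRKY family of stress and defence regulators, stood at 131, 163 and 209 FPKM in GSs and 73.0, 38.6 and 126 FPKM in NGSs (1.21 ± 0.59, adjusted p = 0.44). LOC101250636, given as the bZIP factor PosF21, stood at 85.8, 86.4 and 103 FPKM in GSs and 37.6, 21.7 and 66.9 FPKM in NGSs (1.24 ± 0.48, adjusted p = 0.32). The groups of these genes did not overlap. LOC101247012 stood at 69.6, 95.9 and 106 FPKM in GSs and 33.4, 24.5 and 76.3 FPKM in NGSs (1.15, adjusted p = 0.44), and LOC543855 at 7.04, 16.0 and 11.3 FPKM in GSs and 3.92, 2.25 and 21.5 FPKM in NGSs (0.74, adjusted p = 0.77), with overlap in both.

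Across the 19 WRKY genes found by symbol, which include WRKY31 and LOC543855, 12 had a positive difference with a median of 0.32, and 0 were called. LOC101263542 was the member with the lowest adjusted p (0.20), with 50.8, 45.7 and 67.0 FPKM in GSs and 27.6, 14.5 and 33.4 FPKM in NGSs (1.15 ± 0.34). NGS replicate 11 was the lowest NGS library in each of the WRKY genes for which single values are given.

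JAZ proteins repress jasmonate responses by holding MYC2-type factors inactive, and their genes are themselves switched on by jasmonate, a hormone of wounding and stress. LOC101247936, given as TIFY10b, stood at 111, 132 and 143 FPKM in GSs and 69.8, 36.8 and 69.7 FPKM in NGSs (1.17 ± 0.45, adjusted p = 0.31), without overlap. JAZ2, which the study calls jasmonate ZIM-domain protein 1, stood at 18.9, 86.2 and 55.3 FPKM in GSs and 9.43, 6.502 and 40.4 FPKM in NGSs (1.64 ± 0.76, adjusted p = 0.41), and the groups overlapped. Before salt JAZ2 was at 5.23, 4.29 and 6.19 FPKM in GSs and 12.2, 53.9 and 13.3 FPKM in NGSs. SLJAZ3, picked after its values were seen, stood at 28.5, 60.6 and 65.0 FPKM in GSs and 13.4, 10.4 and 19.4 FPKM in NGSs (1.72 ± 0.48, adjusted p = 0.19).

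The jasmonate list as a whole did not move one way. Of 11 genes tested 6 had a positive difference, 0 were called, and the median was 0.05. AOS, an enzyme early in jasmonate synthesis, stood at 1.54, 4.96 and 1.62 FPKM in GSs and 0.237, 0.420 and 0.807 FPKM in NGSs (1.21, adjusted p = 0.27). JAR1, which joins jasmonate to isoleucine, stood at 9.20, 7.67 and 6.68 FPKM in GSs and 11.7, 28.9 and 11.5 FPKM in NGSs (-0.94 ± 0.30, adjusted p = 0.23). AOS and JAR1 were picked after their values were seen. MYC2, one of the most abundant members, differed by 0.66. Proteinase inhibitors and wound proteins, classic outputs of the pathway, had 4 of 8 positive differences and a median of 0.04 at 48 h. That list had 1 positive member of 8 and a median of -0.53 without NGS replicate 11, and 6 and 0.80 without NGS replicate 12.

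The study's other hormone genes lay close to equality. They were the auxin-conjugating enzyme gene GH3.2 (-0.01), a histidine phosphotransfer gene of cytokinin signalling, LOC101253938 (0.11), and the gibberellin repressor gene GAI, LOC101265384 (-0.09). GH3.2, which the study calls GH3.1, took the opposite sign at a pseudocount of 0.1.

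Antenna proteins bind chlorophyll and pass light energy to the photosystems. The 3 antenna genes of the study were above in every GS library. LOC101253380 stood at 214, 161 and 199 FPKM in GSs and 121, 31.9 and 90.0 FPKM in NGSs (1.42 ± 0.70, adjusted p = 0.44). CAB6A stood at 362, 309 and 359 FPKM in GSs and 229, 116 and 209 FPKM in NGSs (0.94 ± 0.50, adjusted p = 0.48), and LOC101267774 at 1197, 1016 and 1281 FPKM in GSs and 733, 707 and 978 FPKM in NGSs (0.54 ± 0.39, adjusted p = 0.61). NGS replicate 11 was the lowest library in each.

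All 15 antenna genes found by symbol, which include CAB6A and LOC101267774, had a positive difference, from 0.03 to 1.496 with a median of 0.54, but 0 of the 15 reached an unadjusted p of 0.05. The most abundant was CAB1B at 3369, 2655 and 3160 FPKM in GSs and 1974, 1264 and 2523 FPKM in NGSs (0.72, adjusted p = 0.58). Without NGS replicate 11, 13 of the 15 were positive and the median was 0.29. The near-identical CAB copies share reads in a way the sources used here do not describe.

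Of the amino acid enzymes named by the study, SAM2, which makes S-adenosylmethionine, stood at 162, 97.8 and 130 FPKM in GSs and 77.6, 42.3 and 105 FPKM in NGSs (0.85 ± 0.42, adjusted p = 0.44). LOC544313, a glutamate decarboxylase gene of GABA synthesis, stood at 45.8, 77.1 and 52.6 FPKM in GSs and 49.9, 33.8 and 22.4 FPKM in NGSs (0.75 ± 0.39, adjusted p = 0.47). Both overlapped between the groups. An arginine synthesis gene, LOC101265059, differed by 0.40, and the glutamate synthase gene LOC101254281 by 0.03.

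The remaining lists were drawn up from symbols and textbook pathways. Over all lists 438 distinct members were tested and 0 were called at 48 h, beside 0.0498% of all tested genes called higher. With so low a share, nothing is read from the lack of calls among these members. The lowest adjusted p of any of them was 0.10. Of the 438, 49 were higher and 19 lower in GSs at an unadjusted p under 0.05, beside 6.17% and 5.26% of all tested genes. The median difference of the 438 was 0.08.

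Phenylpropanoid genes lead to lignin, flavonoids and phenolic amides. Of 15 tested, 14 had a positive difference, with a median of 0.86 and 4 at an unadjusted p under 0.05. PAL5, encoding the entry enzyme phenylalanine ammonia-lyase, stood at 41.7, 44.8 and 38.3 FPKM in GSs and 7.97, 4.62 and 30.2 FPKM in NGSs (1.87 ± 0.71, adjusted p = 0.31). THT1-4, a tyramine hydroxycinnamoyl transferase gene, stood at 278, 282 and 298 FPKM in GSs and 158, 95.7 and 224 FPKM in NGSs (0.93, adjusted p = 0.72). The GS values were tight and the NGS values wide, without overlap. Without NGS replicate 11 the median of the list was 0.60 and none of the 15 had an unadjusted p under 0.05.

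**Figure D4:**
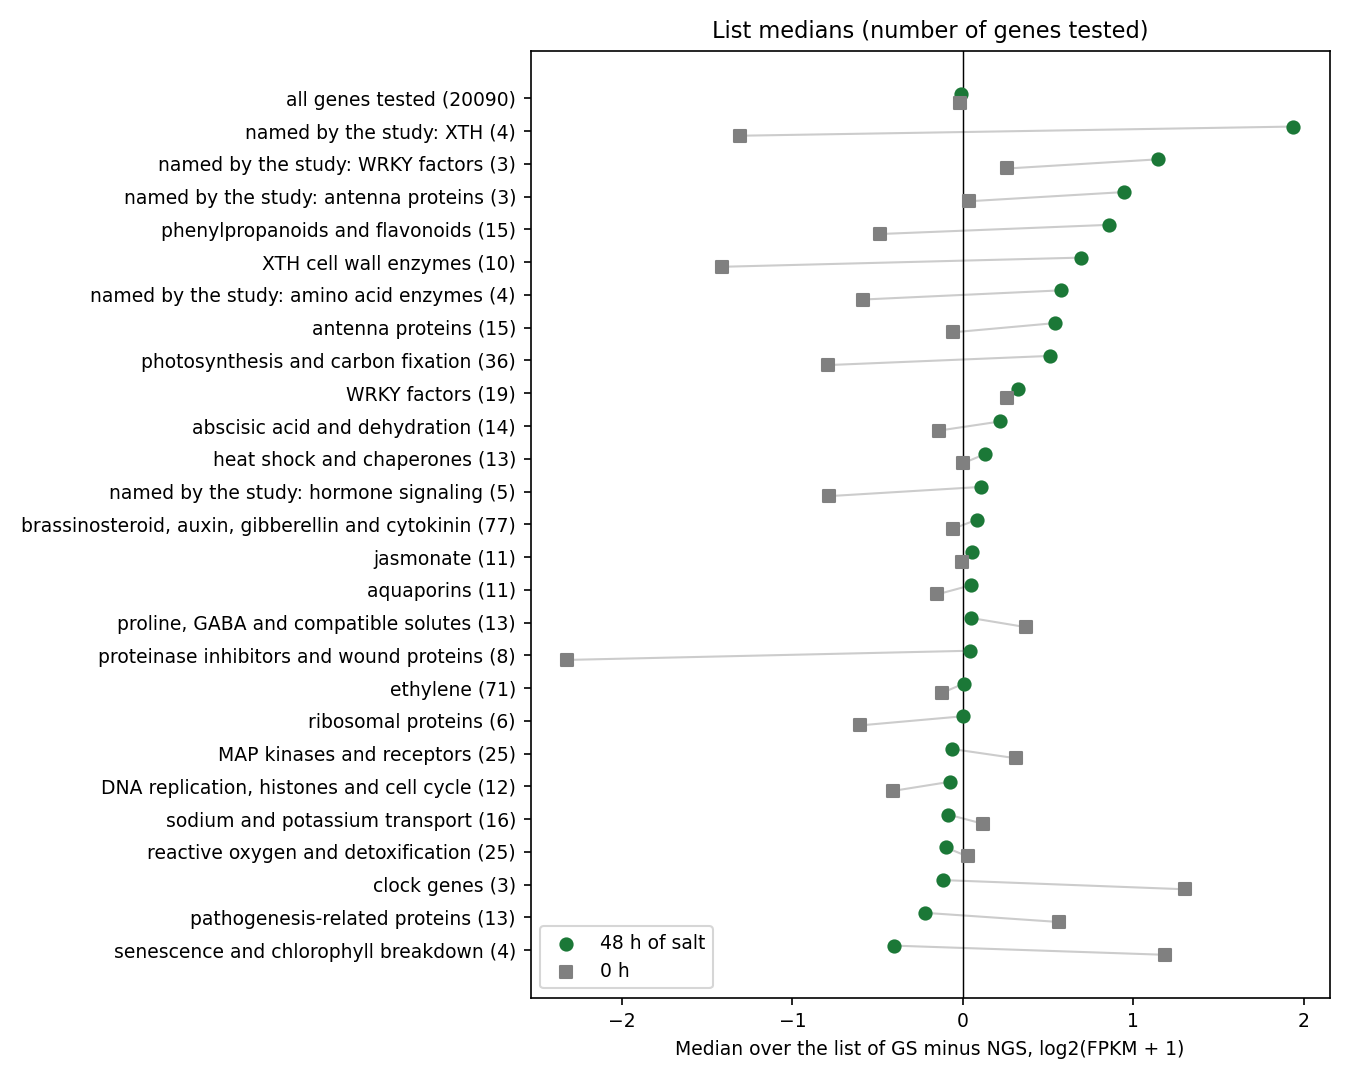
Median over each gene list of the log2 difference GS minus NGS (horizontal axis), at 48 h as green circles and at 0 h as grey squares, with the number of genes tested in parentheses. The XTH genes of the study stand at 1.94 at 48 h and -1.31 at 0 h, and the lists from ethylene to reactive oxygen have medians from -0.10 to 0.01 at 48 h.

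Genes of ethylene synthesis and signalling straddled the line, with 36 of 71 positive, a median of 0.01, and 8 higher against 3 lower at an unadjusted p under 0.05. ERF2, an ethylene response factor, stood at 19.99, 21.4 and 27.0 FPKM in GSs and 11.9, 7.56 and 10.1 FPKM in NGSs (1.14 ± 0.31, adjusted p = 0.17). EIN2, the membrane protein through which the ethylene signal passes, stood at 20.2, 20.3 and 21.0 FPKM in GSs and 24.7, 35.5 and 21.0 FPKM in NGSs (-0.35). ACO6, encoding an oxidase of the last step of ethylene synthesis, stood at 426, 417 and 431 FPKM in GSs and 874, 1394 and 505 FPKM in NGSs (-1.0 ± 0.39, adjusted p = 0.32). The GS libraries of ACO6 were within a few percent of each other and all below the NGS libraries. Its 0 h levels also had GSs below, at 617 ± 191 FPKM in GSs and 1142 ± 245 FPKM in NGSs.

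In the list of brassinosteroid, auxin, gibberellin and cytokinin genes, 45 of 77 were positive with a median of 0.08. The member with the lowest adjusted p (0.10) was GA2ox3, a gibberellin 2-oxidase that inactivates gibberellin, with 8.01, 10.7 and 9.81 FPKM in GSs and 1.04, 0.192 and 2.07 FPKM in NGSs (2.42 ± 0.59). It was under 0.5 FPKM in all libraries of both groups at 0 h. CKX1, which degrades cytokinin, stood at 17.9, 16.3 and 20.3 FPKM in GSs and 6.53, 5.84 and 10.4 FPKM in NGSs (1.19 ± 0.33, adjusted p = 0.19). IPT3, which catalyses the first step of cytokinin synthesis, lay the other way, at 3.30, 3.42 and 4.59 FPKM in GSs and 10.2, 6.62 and 7.51 FPKM in NGSs (-0.92, adjusted p = 0.32). None of these groups overlapped, and GA2ox3 and CKX1 were picked after their values were seen.

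Of 14 abscisic acid and dehydration genes, 11 were positive with a median of 0.22. Without GS replicate 11 the list had 7 positive members and a median of -0.01. LE16, a lipid transfer protein gene induced by drought and abscisic acid, was among the most abundant, at 2081, 2138 and 1942 FPKM in GSs and 2580, 989 and 1557 FPKM in NGSs (0.37, adjusted p = 0.85). Its groups overlapped at 48 h but were far apart at 0 h, at 32.9, 66.9 and 139 FPKM in GSs and 821, 998 and 739 FPKM in NGSs. The dehydrin gene TAS14 varied widely, at 660, 2303 and 360 FPKM in GSs and 506, 309 and 1041 FPKM in NGSs (0.58).

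Galactinol synthases make the precursor of raffinose-family sugars, which protect cells under water deficit. GolS2 stood at 162, 102 and 111 FPKM in GSs and 54.7, 11.03 and 46.0 FPKM in NGSs (1.97 ± 0.60, adjusted p = 0.21), and GolS-1 at 3.999, 4.88 and 0.968 FPKM in GSs and 0.576, 0.157 and 0.491 FPKM in NGSs (1.47 ± 0.35, adjusted p = 0.096). A further gene, LOC101250024, is given by its locus only and not as a galactinol synthase gene. It stood at 34.7, 46.9 and 46.1 FPKM in GSs and 8.54, 5.04 and 17.8 FPKM in NGSs (2.07 ± 0.46, adjusted p = 0.072). At 0 h LOC101250024 was at 1.81 ± 0.31 FPKM in GSs and 2.12 ± 0.41 FPKM in NGSs, so it was higher at 48 h in both. CaM2, a calmodulin gene, stood at 688, 643 and 868 FPKM in GSs and 311, 222 and 397 FPKM in NGSs (1.27 ± 0.41, adjusted p = 0.23). These 4 genes were singled out after their values were seen, and none passed.

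Sodium and potassium transport genes had 6 of 16 positive differences and a median of -0.09. LHA4, encoding a plasma membrane proton pump that energises ion transport, stood at 193, 261 and 178 FPKM in GSs and 328, 379 and 195 FPKM in NGSs (-0.48, adjusted p = 0.43), after 153 ± 22.2 FPKM in GSs and 65.7 ± 5.08 FPKM in NGSs at 0 h. The related LHA2 stood at 337, 321 and 253 FPKM in GSs and 392, 521 and 365 FPKM in NGSs (-0.48, adjusted p = 0.40). CIPK11, a kinase of the calcineurin B-like calcium sensors, stood at 58.1, 48.2 and 35.9 FPKM in GSs and 16.6, 6.64 and 31.2 FPKM in NGSs (1.54 ± 0.72, adjusted p = 0.42). The groups did not overlap in LHA2 and CIPK11 but did in LHA4, and CIPK11 was picked after its values were seen.

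A sucrose transporter gene and an aquaporin gene, both among those called relative to 0 h, were further apart between the groups before salt than at 48 h. LeSUT1, the sucrose transporter of phloem loading, stood at 159, 140 and 171 FPKM in GSs and 218, 263 and 194 FPKM in NGSs at 48 h (-0.51 ± 0.25, adjusted p = 0.44), after 189 ± 26.3 FPKM in GSs and 65.3 ± 21.7 FPKM in NGSs at 0 h. The plasma membrane aquaporin gene PIP2-7 stood at 80.5, 74.1 and 38.2 FPKM in GSs and 55.6, 25.4 and 26.6 FPKM in NGSs (0.85), after 87.8 ± 42.4 FPKM in GSs and 207 ± 17.1 FPKM in NGSs at 0 h. All 11 aquaporins tested had 6 positive differences and a median of 0.05.

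Defence and detoxification genes were not one-sided at 48 h. PR1b1, a pathogenesis-related protein gene of salicylate responses, stood at 227, 2063 and 338 FPKM in GSs and 1001, 6158 and 4353 FPKM in NGSs (-2.47 ± 1.34, adjusted p = 0.49), and replicate 11 was the highest library of each group. Its 0 h values were 2816, 14493 and 4489 FPKM in GSs and 602, 513 and 314 FPKM in NGSs. The 13 pathogenesis-related genes had 6 positive differences and a median of -0.22. MPK3, a stress-activated MAP kinase gene, stood at 180, 172 and 208 FPKM in GSs and 61.5, 32.5 and 175 FPKM in NGSs (1.38 ± 0.83, adjusted p = 0.53), with overlap. The MAP kinases and receptors had 10 of 25 positive and a median of -0.06.

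Of 25 genes of reactive oxygen and detoxification, 8 were positive with a median of -0.10. GR, glutathione reductase, averaged 118 ± 5.83 FPKM in GSs and 127 ± 14.5 FPKM in NGSs (-0.10), after 98.6 FPKM in GSs and 45.5 FPKM in NGSs at 0 h. The medians were 0.13 for 13 heat shock and chaperone genes, 0.05 for 13 genes of proline, GABA and compatible solutes, -0.00 for 6 ribosomal protein genes, -0.08 for 12 genes of DNA replication, histones and cell cycle, -0.41 for 4 senescence genes and -0.12 for 3 clock genes. The senescence median was -0.01 without NGS replicate 11 and -0.99 without NGS replicate 12. No member of these lists was called at 48 h.

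The difference between GSs and NGSs at 48 h was itself compared with that at 0 h, which asks whether the levels of the 2 groups moved differently over 48 h of salt. By limma, 809 genes moved up in GSs relative to NGSs (4.03%) and 374 moved down (1.86%), 1183 in all, and 10235 genes had a positive value (50.9%). This count shares the 48 h libraries with the direct comparison and the 0 h libraries with the comparison before salt, so the 3 are not independent. It was 319 without NGS replicate 11, 707 without GS replicate 10 and 1509 without NGS replicate 12. With voom on recovered reads 788 were called, 474 upward and 314 downward.

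Of the study's 20 genes 3 were among them, all upward. LOC101258345 moved by 3.66 (adjusted p = 0.017), LOC101258632 by 4.07 (adjusted p = 0.020) and JAZ2 by 3.46 (adjusted p = 0.044) on the log2 scale. Both XTH genes lost the call without NGS replicate 11. JAZ2 lost it without GS replicate 11, GS replicate 12, NGS replicate 10 or NGS replicate 11, and also under voom, with library totals and with no filter. In the XTH list found by symbol 5 of 10 moved up, namely XTH1, XTH7, XTH9, XET4 and LOC543916, and all 5 had lower mean FPKM in GSs than in NGSs at 0 h and higher mean FPKM at 48 h. XET4 averaged 3.56 ± 0.35 FPKM in GSs and 2.11 ± 0.61 FPKM in NGSs at 48 h, after 2.47 FPKM in GSs and 8.72 FPKM in NGSs at 0 h. Without NGS replicate 11, 2 genes of this list were called.

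In the growth hormone list 3 genes of 77 were called upward and 2 downward, and in the ethylene list 3 of 71 upward and 2 downward, beside 4.03% and 1.86% of all tested genes. These shares are near the background, so the values describe single genes and not the lists. Upward were LOG7, a cytokinin-activating enzyme gene, GID2, an F-box gene of gibberellin signalling, IAA16, an auxin response repressor gene, and the ethylene response factor genes ERF2, ERF-D5 and ERF-H1. GID2 stood at 63.2, 50.5 and 60.4 FPKM in GSs and 47.8, 39.3 and 43.5 FPKM in NGSs at 48 h, after 66.0 ± 12.3 FPKM in GSs and 161 ± 40.7 FPKM in NGSs at 0 h. IAA16 was at 68.2 ± 28.1 FPKM in GSs and 139 ± 8.28 FPKM in NGSs at 0 h, and differed by 0.50 at 48 h. Downward were IPT3 and IPT4 of cytokinin synthesis and EIN2 and EIL3 of ethylene signalling.

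Over all 438 list members 33 were called upward and 13 downward, beside 4.03% and 1.86% of all tested genes. Of the 33, 13 were plastid genes of photosynthesis. Outside the lists already given, the upward calls included 1 of 14 abscisic acid and dehydration genes, 1 of 11 aquaporins, 1 of 15 phenylpropanoid genes and 2 of 19 WRKY genes. The downward calls included 2 of 16 transport genes of sodium and potassium, 2 of 25 genes of reactive oxygen and detoxification and 1 of 13 pathogenesis-related genes. With so few calls a list, nothing is read from them about a list. The WRKY calls were 0 without GS replicate 10 or without NGS replicate 11. Moving up in GSs relative to NGSs were LE16, PIP2-7, PAL5, GolS2, EXP5, the trichome terpene synthase gene TPS12 and the WRKY genes LOC101263542 and LOC101264826. LeSUT1 and SUT4, the proton pump genes LHA2 and LHA4, GR, the catalase gene LOC101262876, the NAC gene NAP2 of leaf senescence, the co-receptor gene SERK3B and PR1b1 moved down. TPS12 was at 2.11 FPKM in GSs and 17.3 FPKM in NGSs at 0 h. In LE16, LHA4, LeSUT1 and GR the groups were further apart at 0 h than at 48 h.

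Transcripts of the plastid genome took a small share of the reads, 0.0470%, 0.0513% and 0.294% in GS replicates 10, 11 and 12 and 0.0499%, 0.0351% and 0.0460% in the NGS libraries at 48 h. At 0 h the shares were 0.0976%, 0.0755% and 0.0920% in GSs and 0.215%, 0.212% and 0.205% in NGSs. GS replicate 12 thus stood alone among the libraries of 48 h. The summed level of the mitochondrial genome moved with it, at 69.6, 63.8 and 243.2 FPKM in GSs and 90.2, 62.7 and 41.6 FPKM in NGSs at 48 h, and at 93.0, 112.5 and 117.0 FPKM in GSs and 298.8, 537.8 and 432.5 FPKM in NGSs at 0 h. What part these organelle transcripts play in the other differences of GS replicate 12 was not tested.

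**Figure D5:**
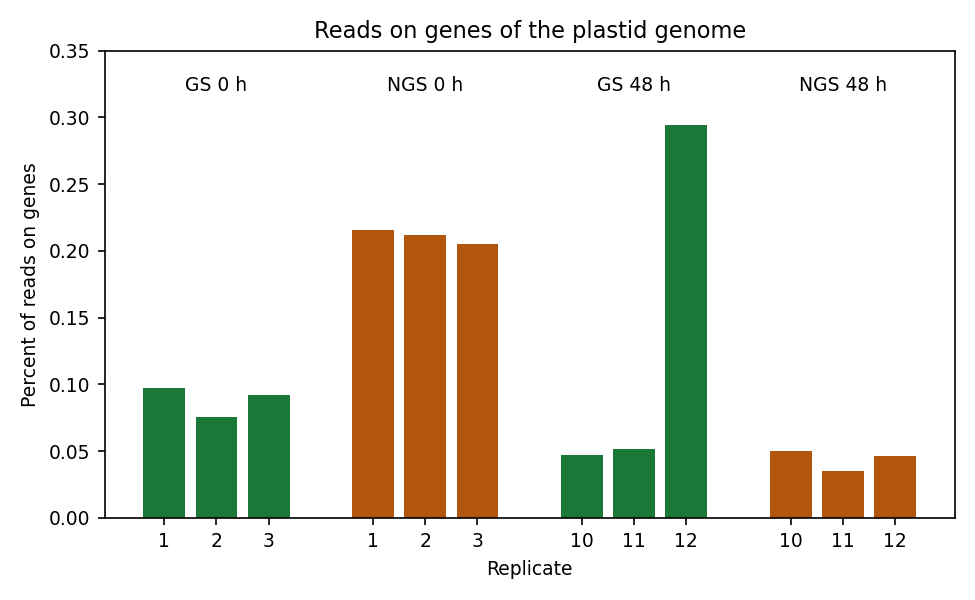
Bars give the percent of reads on genes that fell on genes of the plastid genome, 1 bar per library, in GSs and NGSs at 0 h and then at 48 h. GS replicate 12 is the single high library at 48 h, and the NGS libraries lie above the GS libraries at 0 h.

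Of 117 plastid genes tested, 101 had a positive difference at 48 h, 30 had an unadjusted p under 0.05 and 0 were called, with a median of 0.57. Without GS replicate 12 the positive genes were 76, those at an unadjusted p under 0.05 were 5, and the median was 0.16. The core photosystem gene psbA stood at 71.2, 68.996 and 1503 FPKM in GSs and 106, 84.4 and 64.4 FPKM in NGSs (1.22 ± 0.74), and rbcL, the large subunit of Rubisco, at 23.4, 28.1 and 351 FPKM in GSs and 42.1, 13.2 and 15.5 FPKM in NGSs. In both genes GS replicates 10 and 11 lay within the NGS range.

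The genes psaA, psbC and psbD of the photosystem cores had the same shape. The first stood at 2.69, 4.21 and 31.9 FPKM in GSs and 4.19, 1.80 and 1.71 FPKM in NGSs. In the comparison with 0 h, 33 of the 117 plastid genes moved up in GSs relative to NGSs, beside 4.03% of all tested genes. Of the 33, 23 had been called lower in GSs than in NGSs at 0 h. The upward calls were 10 without GS replicate 12 and 8 without NGS replicate 11. In the list of photosynthesis and carbon fixation, split by genome after the values were seen, the 26 plastid genes had a median of 0.97 at 48 h and the 10 nuclear genes a median of 0.04. All 13 calls of that list relative to 0 h were plastid genes.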

How the data were processed

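Leaf RNA of 12 groups of 3 libraries was sequenced for the authors by Novogene on an Illumina instrument. The submitters' processing notes name HISAT2 2.0.5 and featureCounts 1.5.0-p3. Annotation release, strandedness and the treatment of multi-mapped reads are not given in the sources used here. The deposited table holds FPKM computed by the authors for 32246 genes in 36 libraries. The unit is inferred from the values: they are whole multiples of the worth of 1 read for all 27368 genes above 0, and they already carry a scaling between libraries. Gene names were matched by identifier to a RefSeq table (assembly SLM_r2.1), which held 28942 of the genes, 2941 with a name other than a locus number. The study names a different tomato assembly for its mapping of reads. No coordinates or sequences were used.

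Genes with at least 1 FPKM in at least 3 libraries were tested (20090) with limma 3.58.1 in R 4.3.3 on log2(FPKM + 1), with a trend in the moderation, 12 group means and 24 residual degrees of freedom. Genes were called at a log2 difference of at least 1 and a Benjamini-Hochberg adjusted p under 0.05. The text names called genes and the genes the study names. It also gives the 10 higher and 10 lower genes with the lowest unadjusted p at that size. Of the 3 most abundant members of each list, only some are named. Others are said to be chosen after their values were seen, or stand with the genes called relative to 0 h. The comparison and the lists were chosen with earlier results of these data known. From the lists, 15 symbol matches were left out for their identity, and the plastid lists were added after seeing the data. Marker lists of guard cells, xylem and root matched no gene and were not analysed here. Alternatives were pseudocounts of 0.1 and 5, other filters, only the libraries compared, a replicate block, library totals, voom on recovered reads, no trend, and leaving out each library. The scripts were tested on simulated data.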

Additional observations from a re-analysis of the deposited data

Results flagged for a closer look

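For 1183 genes the difference between GSs and NGSs at 48 h differed from that at 0 h in the test of the difference itself (limma, Benjamini-Hochberg adjusted p under 0.05 and a log2 value of at least 1). The values below are (GS at 48 h minus GS at 0 h) minus (NGS at 48 h minus NGS at 0 h) on the log2(FPKM + 1) scale. Of the genes called at 48 h, LOC101264718 had 1.51, LOC101251284 1.78, LOC101246038 1.11, LOC101257252 1.86, LOC101244226 2.41, LOC101246866 1.20 and LOC101249859 1.54. The lower genes had -2.48 in MCA2, -3.85 in LOC101260459, -3.17 in LOC104648440, -3.33 in LOC101263994, -1.35 in LOC101245530 and -1.43 in LOC101260252.

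In the cell wall group, LOC101258345 had 3.66, LOC101258632 4.07, XTH1 2.48, XTH7 3.24, XTH9 3.71, XET4 2.07, LOC543916 3.55 and EXP5 3.65. Among regulators, JAZ2 had 3.46, LOC101263542 1.56, LOC101264826 1.698, ERF2 1.48, ERF-D5 1.31 and ERF-H1 2.40, against -1.21 in EIN2, -1.13 in EIL3, -2.07 in NAP2 and -1.20 in SERK3B. The growth hormone genes gave 1.57 in LOG7, 1.67 in GID2 and 1.61 in IAA16, against -1.74 in IPT3 and -1.68 in IPT4.

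Of genes outside these groups, LE16 had 4.0002, GolS2 3.71, PAL5 3.17, TPS12 2.97, LOC101250024 2.22 and PIP2-7 2.17. The negative values were -1.11 in LHA2, -1.68 in LHA4, -2.07 in LeSUT1, -1.02 in SUT4, -1.19 in GR, -1.03 in LOC101262876 and -6.09 in PR1b1. The plastid genes gave 3.44 in psaA, 2.97 in psbC, 3.11 in psbD and 3.997 in rbcL, with GS replicate 12 as the high library.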

How the results depend on the processing

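The 10 calls at 48 h became 0 with a pseudocount of 0.1, 0 with only the libraries compared and 0 under voom, where limma left 2226, 2601 and 2039 genes at an unadjusted p under 0.05. They became 31 with a pseudocount of 5, 1 with library totals and 5 with the replicate block. Leaving out 1 library gave 1 to 118 calls, and all 10 genes were kept without NGS replicate 12. Calls relative to 0 h were 764 with a pseudocount of 5, 788 under voom, and 319 to 1509 without 1 library. With a pseudocount of 0.1 they split into 587 upward and 452 downward, against 809 and 374. At 0 h there were 517 with a pseudocount of 5, 550 with only the libraries compared and 2808 on the adjusted p alone, and a pseudocount of 0.1 gave 529 higher and 682 lower. List members called at 48 h became 2 with a pseudocount of 5, and 0 to 1 without 1 library. Same-numbered GS and NGS libraries deviated from their group means with correlations of 0.0955, 0.185 and -0.0836, and differently numbered ones with -0.230 to 0.131. With 3 libraries a group, these values cannot decide whether the numbers pair the libraries. The replicate block gave 1140 calls relative to 0 h. GH3.2 reversed to 0.16 with a pseudocount of 0.1 and 0.21 under voom. Without 1 library, differences with a changed sign ran from -0.26 to 0.36 in GH3.2, -0.13 to 0.30 in LOC101254281, -0.21 to 0.37 in LOC101253938, -0.18 to 0.025 in LOC101265384, -0.037 to 0.62 in ERF-H1, -0.17 to 1.17 in TAS14, -0.27 to 0.0037 in LOC101262876, -0.25 to 1.97 in psbA and -0.084 to 0.45 in RBCS4. The cause of these shifts was not tested. The plastid counts without GS replicate 12 were added after seeing the data. With 3 libraries a group, depth limits genes under about 1 FPKM most.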
